A study of Mus musculus with 24 samples.

Results

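Interferon-stimulated genes were examined as a list of 49 symbols, chosen by name and matched to the count table by identifier, and all 49 were found among its 49671 genes. Of these, 48 passed the filter on low counts and were tested, among 19691 genes in all, and Oas3 did not pass it. RNA sequencing was performed on 24 mouse libraries in 6 groups of 4. NSC were neural stem cells kept in FGF and EGF, derived from the embryonic stem cell line GSC-5003 on a C57Bl/6 N background, and AGES were astrocytes made from them with 20 ng/ml BMP4 over 3 to 5 days. Primary astrocytes came from wild-type C57BL/6J mice of mixed sex, aged 4 to 8 days (neonatal, neoAC) or 100 to 140 days (adult, AdAC), with 2 mice pooled per isolation and selection on magnetic anti-ACSA-2 beads. They were either frozen after isolation (neoAC direct, AdAC direct) or grown for 7 to 10 days in a defined medium (neoAC CellC, AdAC CellC). Replicates were separate isolations, or separate cultures of the 1 cell line for NSC and AGES. Neonatal and adult brains were dissociated with different kits, and only the adult protocol removed debris and red blood cells, so that age and isolation method cannot be told apart. The labels name no interferon and no virus for any group, so the comparisons concern the level of these genes after culture, at a given age and by origin of the cells.

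Interferons are secreted proteins by which cells announce an infection. Type I interferons bind the receptor IFNAR1 and IFNAR2, whose kinases JAK1 and TYK2 activate the complex ISGF3, of which STAT2 and IRF9 are parts, and this complex binds the interferon-stimulated response element (ISRE) in promoters. Interferon gamma acts on another element, GAS, and members of the IRF family can bind ISRE-like elements without interferon. The induced proteins detect foreign nucleic acid, block translation, cut RNA or hold back budding virus, and astrocytes of the brain can both make and answer interferon.

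Library totals lay between 27904126 and 37997368 counts. Levels are given as CPM, counts scaled to a common library total after normalization by trimmed mean of M values (TMM). A group with at most 3 counts in each library was taken to be at the detection floor. This floor corresponded to 0.0846 to 0.0997 CPM averaged by group (0.0786 to 0.117 CPM in single libraries) and covers counting error only. Differences are log2 fold changes ± SE from edgeR's quasi-likelihood fit of all 24 libraries, 4 in each group, with p-values adjusted by Benjamini-Hochberg over the genes tested and a threshold of 0.05. Astrocyte identity varied between the groups. The summed level of 10 astrocyte markers was 58021 to 62724 CPM in AGES, most of it Gfap, and 8822 to 10146 CPM in neoAC CellC. AdAC CellC had 1092 to 1669 CPM, below the 2475 to 2927 CPM of NSC. Markers of oligodendrocytes summed to 3971 to 10257 CPM in AdAC CellC and to 24232 to 27379 CPM in AdAC direct.

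Cultured neonatal astrocytes had the highest level of most members. Of the 49 genes, 43 had their highest group mean in neoAC CellC, 2 in AdAC CellC (Ifitm3 and Isg20), 2 in AdAC direct (Ifitm1 and Xaf1), 1 in AGES (Ifitm2), 1 in neoAC direct (Irf1) and none in NSC. A mean over 10 CPM was reached by 37 members in neoAC CellC, 23 in AdAC CellC, 15 in AdAC direct, 13 in neoAC direct, 11 in AGES and 8 in NSC. The median member stood at 27.6 CPM in neoAC CellC and at 8.59 in AdAC CellC, while the directly isolated cells had 2.42 (neonatal) and 5.22 (adult). In AGES the median was 0.546 and in NSC 0.136. No member was at the detection floor in either culture of primary cells, whereas 16 were in NSC and 9 in AGES.

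**Figure D1:**
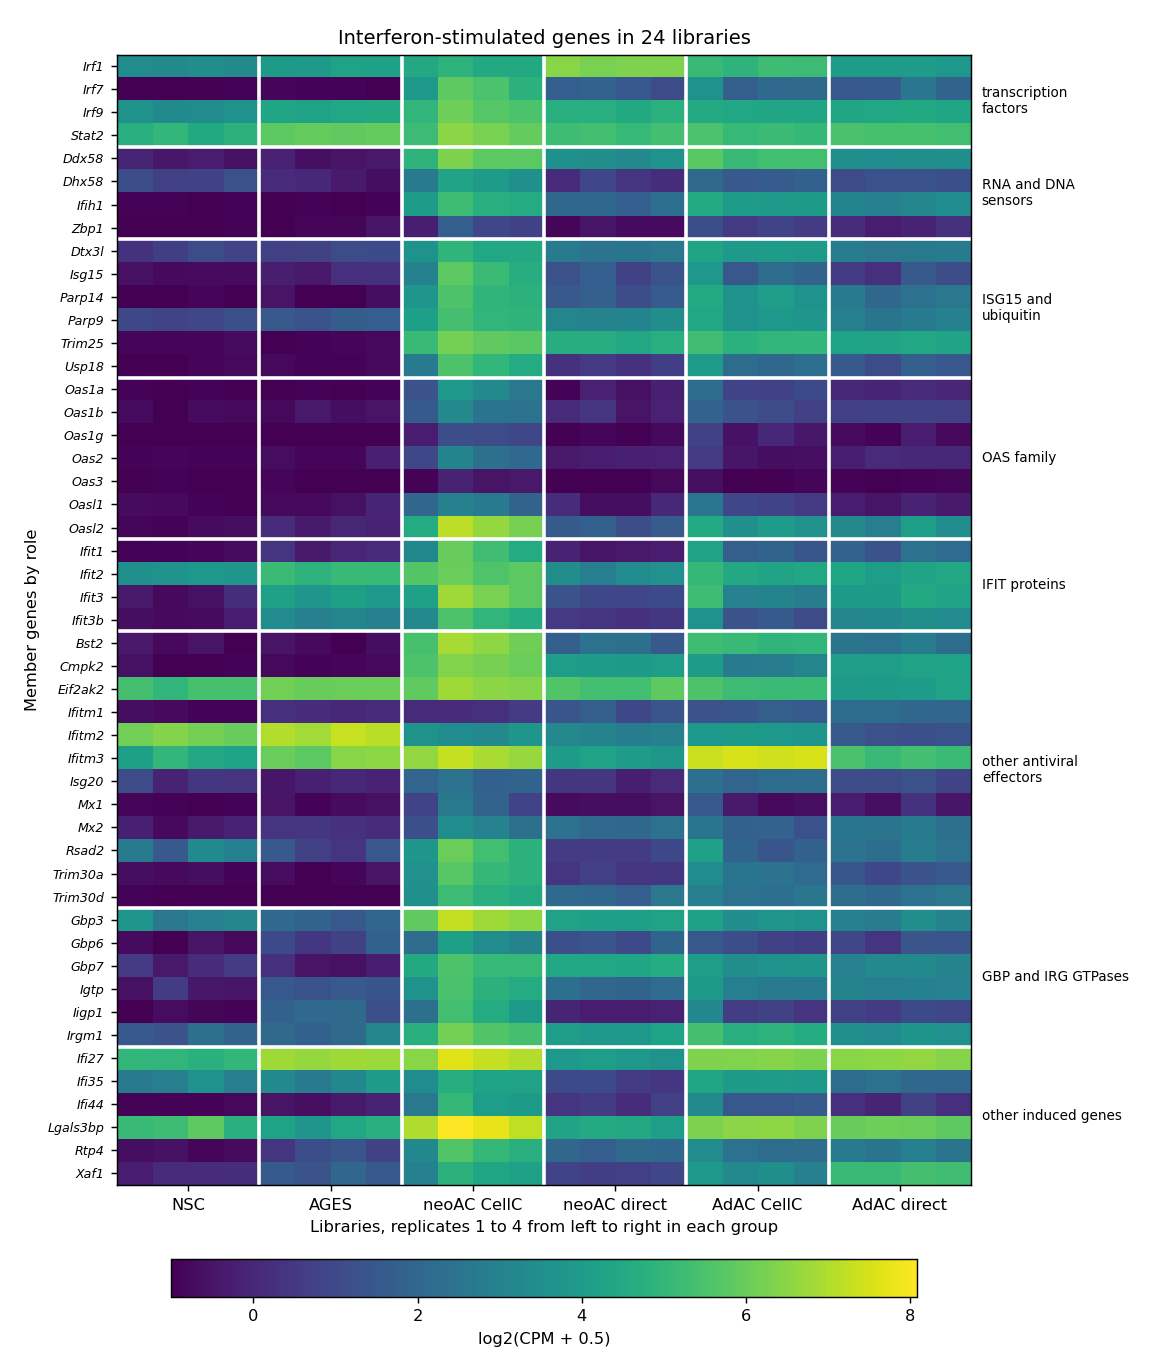
Level of the 49 interferon-stimulated genes (rows, grouped by role) in the 24 libraries (columns, 4 per group), coloured by log2 of CPM plus 0.5. The 4 neoAC CellC columns are the brightest for 43 of the genes by group mean, and NSC and AGES are dark for most sensors, ubiquitin-like modifiers and oligoadenylate synthetases.

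Among all members compared per kilobase of exon, Ifitm3, Ifi27 and, in NSC and AGES, Ifitm2 were among the most abundant. Ifitm1 was much lower, between 0.0655 CPM per kb in NSC and 3.51 in AdAC direct. Ifitm3 led in neoAC CellC (175 CPM per kb), followed by Ifi27 (97.4), Bst2 (89.4) and Lgals3bp (67.3). It also led in AdAC CellC with 261 CPM per kb and in neoAC direct with 23.0. Ifi27 and Ifitm3 were close in AdAC direct at 62.1 and 57.2 CPM per kb. Ifitm2 came first in AGES (208 CPM per kb, before Ifitm3 at 109.8 and Ifi27 at 72.4) and in NSC (111 CPM per kb).

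The 4 libraries of a primary culture did not agree well on these genes. Over the members with at least 1 CPM, the median coefficient of variation was 43.7% in neoAC CellC and 27.4% in AdAC CellC, against 9.31% and 7.71% over all genes at that level. In the other 4 groups it was 12.9% to 20.1%, against 8.30% to 12.7% over all genes. The neoAC CellC replicate 2 had the highest value of its group for 46 of 47 members (97.9%) and for 21.8% of all genes, and replicate 1 had the lowest for 42 of 47 (89.4%) against 28.9% of all genes. The AdAC CellC replicate 1 was highest for 39 of 45 members (86.7%) against 25.9% of all genes. The members therefore moved together within a group. The mean of log2(CPM + 0.5) over the 48 tested members was 3.55, 5.13, 4.66 and 4.39 in neoAC CellC and 3.83, 2.92, 2.98 and 2.89 in AdAC CellC. It spanned 1.81 to 2.03 in neoAC direct, 2.37 to 2.7 in AdAC direct, 1.12 to 1.37 in AGES and 0.60 to 0.73 in NSC. The lowest neoAC CellC library was below the highest AdAC CellC library, and these were the only neighbouring groups in this order that overlapped.

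**Figure D2:**
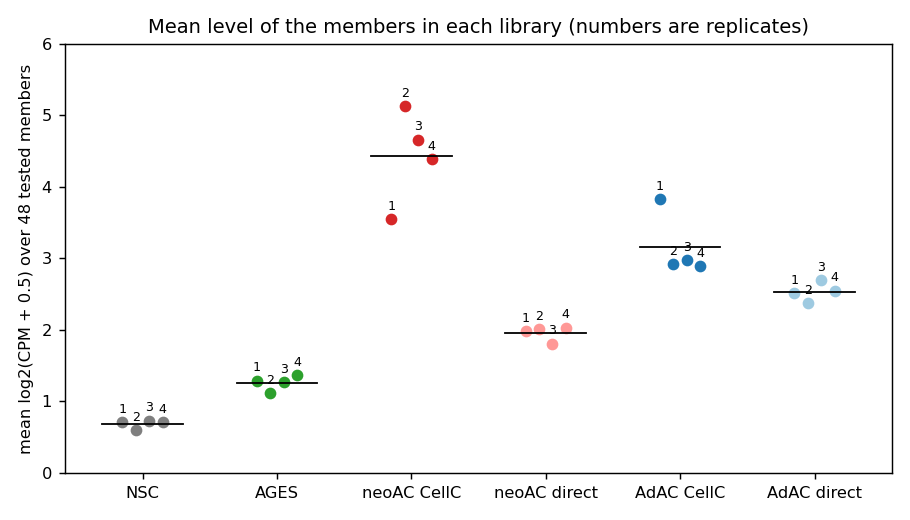
Mean of log2(CPM + 0.5) over the 48 tested members (vertical axis) in each library (points) of the 6 groups, with the group mean as a line and the replicate number above each point. The neoAC CellC libraries spread from 3.55 to 5.13, AdAC CellC replicate 1 stands at 3.83 above the other AdAC CellC libraries at 2.89 to 2.98, and the remaining groups spread less.

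Many of the promoters hold the sequence that ISGF3 and IRF factors recognise. RefSeq promoters (GRCm38.p6, 250 bases before to 50 after the start) were at hand for 36 of the 49 members. The ISRE core GAAANNGAAA, searched on both strands, occurred in 21 of these 36 (58.3%) and in 1079 of 27025 genes (3.99%). With the part after the start left out it occurred in 17 (47.2%) against 3.46% of genes. The GAS core TTCNNNGAA, which is a palindrome and so reads alike on both strands, occurred in 10 members (27.8%) against 9.55% of genes. A match describes the letters and does not show that a factor binds. Shown here are stretches of 50 bases that lie before the start of genes on which the results below turn, in the direction of transcription, with the ISRE core in capitals, read as its reverse complement where it lies on the opposite strand:
Ifit1: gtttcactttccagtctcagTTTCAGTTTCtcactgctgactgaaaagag
Ifit3: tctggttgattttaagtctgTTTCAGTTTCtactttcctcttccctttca
Ifit3b: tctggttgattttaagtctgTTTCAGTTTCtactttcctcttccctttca
Isg15: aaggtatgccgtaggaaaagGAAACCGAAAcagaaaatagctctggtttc
Rsad2: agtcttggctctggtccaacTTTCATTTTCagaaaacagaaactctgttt
Bst2: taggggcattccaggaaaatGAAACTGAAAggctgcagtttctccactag
Gbp3: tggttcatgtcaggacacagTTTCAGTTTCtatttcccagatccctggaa
Stat2: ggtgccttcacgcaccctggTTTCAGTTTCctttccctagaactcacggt
Ifitm2: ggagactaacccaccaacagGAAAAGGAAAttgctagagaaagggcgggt
They lie at chr19:34640784-34640833 on the plus strand, chr19:34583387-34583436 on the plus strand, chr19:34607783-34607832 on the plus strand, chr4:156200861-156200910 on the minus strand, chr12:26456543-26456592 on the minus strand, chr8:71537567-71537616 on the minus strand, chr3:142559979-142560028 on the plus strand, chr10:128270256-128270305 on the plus strand and chr7:140955978-140956027 on the minus strand. Isg15 has 3 overlapping or adjoining cores before its start, and Ifit1, Ifit3, Ifit3b, Bst2 and Gbp3 have 2 each. The 2 stretches around the cores of Ifit3 and Ifit3b are identical over 50 bases, as these genes are recent copies of each other. No ISRE core was found in this window of Irf7, Oasl2, Cmpk2, Xaf1, Lgals3bp, Irf1 or Ifitm1.

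Culture of neonatal astrocytes was accompanied by higher levels of nearly the whole list. Of the 48 members tested, 45 were higher in neoAC CellC than in neoAC direct (93.8%) and 2 were lower, Irf1 and Ifitm1, while Mx2 did not pass the test. Of all genes tested, 34.4% were higher and 31.3% lower. The median log2 fold change was 3.29 over the members and 0.04 over all genes. All members tested of the sensors, the ISG15 system, the oligoadenylate synthetases, the IFIT proteins, the guanylate binding proteins and immunity-related GTPases, and the group of other induced genes were higher. In such bulk samples, fewer cells of a type and less RNA per cell cannot be told apart. Of the microglial markers, 13 of 15 were lower in neoAC CellC and 1 (Tmem119) was higher, and their summed level was 6.76 to 16.3 CPM against 20.3 to 112 CPM in neoAC direct. Cx3cr1 was at 0.156 to 0.665 CPM and C1qa at 0.527 to 2.36 CPM in culture. The 5 ependymal markers were all higher, with sums of 1395 to 1765 against 136 to 201 CPM, and the oligodendrocyte sum was 61.7 to 152 against 39.1 to 58.4 CPM. The summed level of the 10 astrocyte markers was 8822 to 10146 against 24189.9 to 26626 CPM. The part of these cell types in the result was not tested.

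Of the transcription factors, Irf7, the amplifier of the type I response, was at 13.9, 57.0, 45.2 and 27.9 CPM in neoAC CellC and at 2.80, 3.10, 2.34 and 1.63 CPM in neoAC direct (3.86 ± 0.44, adjusted p = 5.76e-08). Stat2, a subunit of ISGF3, was at 37.3, 89.3, 76.0 and 61.4 CPM in culture and 37.7, 40.2, 33.4 and 41.3 CPM before it (0.79 ± 0.17, adjusted p = 1.89e-04). The Stat2 libraries overlapped because neoAC CellC replicate 1 stayed at the level of the uncultured cells, while the Irf7 libraries were apart. Irf9, the DNA-binding part of ISGF3, was also higher (0.96 ± 0.14). Irf1, a factor induced by interferon gamma and by injury signals, went the other way. It was at 87.1, 75.2, 79.6 and 79.1 CPM in the uncultured cells and 22.0, 28.5, 22.4 and 22.5 CPM in culture, without overlap (−1.75 ± 0.10, adjusted p = 6.07e-14).

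The 4 sensors of foreign nucleic acid were higher after neonatal culture. Ddx58, which encodes the RNA helicase RIG-I, rose from 11.4, 10.6, 9.11 and 12.1 CPM to 29.2, 77.8, 55.3 and 54.8 CPM (2.33 ± 0.20, adjusted p = 2.88e-10). Ifih1, which encodes MDA5 and detects long double-stranded RNA, rose by 2.83 ± 0.22, Dhx58, a regulator of both helicases, by 3.94 ± 0.33, and Zbp1, a sensor of Z-form nucleic acid, by 3.50 ± 0.55. In the ISG15 system, the ubiquitin-like modifier gene Isg15 was at 1.89, 2.77, 1.19 and 2.03 CPM before and 7.52, 54.5, 35.8 and 24.7 CPM in culture (3.95 ± 0.56, adjusted p = 2.30e-06). Usp18, which removes ISG15 from proteins and dampens receptor signalling, was at 0.715, 0.969, 0.713 and 1.10 CPM before and 6.40, 46.1, 32.0 and 23.4 CPM in culture (4.94 ± 0.54, adjusted p = 3.53e-08). Both had groups without overlap, although neoAC CellC replicate 1 was several times below the other cultures. The ligase genes Trim25, Dtx3l, Parp9 and Parp14 were higher by 1.18 to 3.60 on the log2 scale. Dtx3l and Parp9 share exon sequence on opposite strands, and whether counting used the strand is not stated, so their separate levels are uncertain.

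Rises were large for the genes of the IFIT proteins, which bind viral RNA, and of the oligoadenylate synthetases, which activate the nuclease RNase L. Ifit1 was at 0.423, 0.222, 0.272 and 0.333 CPM in neoAC direct and at 8.92, 61.6, 39.1 and 23.4 CPM in neoAC CellC (6.73 ± 0.76, adjusted p = 8.94e-08). Ifit3 stood at 1.98, 1.44, 1.39 and 1.56 CPM before and 17.8, 111, 75.9 and 55.6 CPM in culture (5.35 ± 0.61, adjusted p = 1.38e-07). No library of the cultured group overlapped the uncultured ones for either gene. Ifit3b rose by 5.06 ± 0.57 and Ifit2, which was already at 6.95 to 11.5 CPM before culture, by 2.45 ± 0.16. How counting treated reads that align to both Ifit3 and Ifit3b is not stated, so that their separate levels are uncertain, and the same holds for Oas1a and Oas1g, Trim30a and Trim30d, Ifitm2 and Ifitm3, and Mx1 and Mx2. Oas1a was at 0.0325, 0.388, 0.170 and 0.366 CPM before and 2.03, 13.7, 9.26 and 5.65 CPM in culture (4.96 ± 0.56, adjusted p = 3.68e-08). Oasl2, a synthetase-like protein that binds double-stranded RNA, reached 23.7, 143, 99.3 and 74.0 CPM from 2.47, 2.96, 1.73 and 2.53 CPM (5.12 ± 0.42, adjusted p = 5.08e-10). For Oas1g, at the detection floor in neoAC direct, the level in culture was at least 13.2-fold higher.

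**Figure D3:**
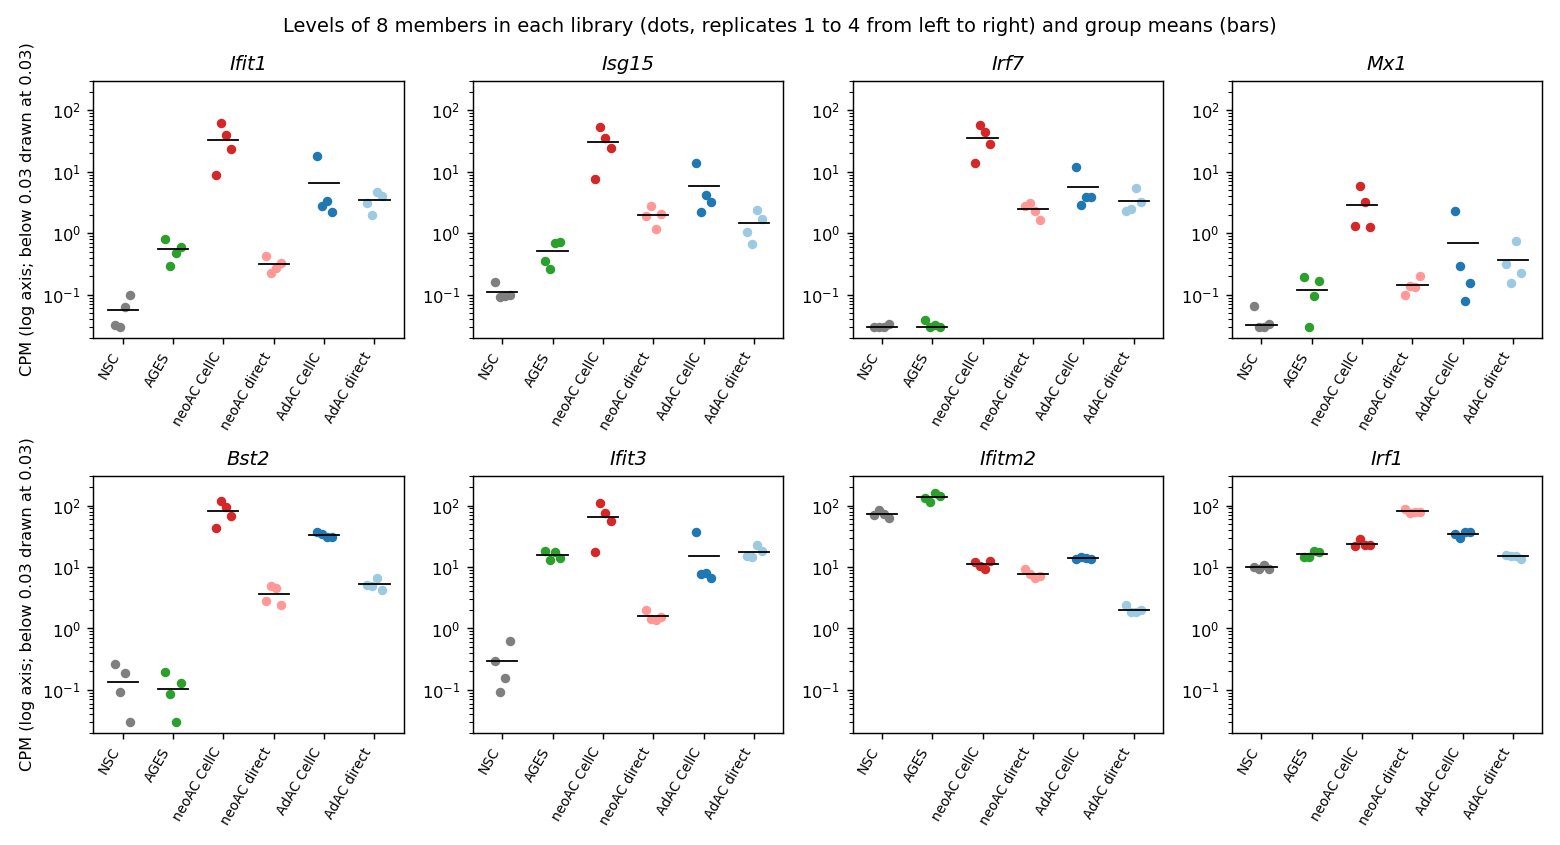
CPM on a log axis of 8 members (panels) in each library (points) of the 6 groups, with values under 0.03 CPM drawn at 0.03. Ifit1, Isg15 and Mx1 are highest in neoAC CellC with 1 AdAC CellC library far above the other 3, whereas Irf1 is highest in neoAC direct and Ifitm2 in AGES.

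Among other antiviral effectors, 10 of 12 were higher in cultured neonatal astrocytes. Mx1, a GTPase that traps viral ribonucleoproteins and a reactivity marker in astrocytes, was low in every group, at 0.0975, 0.138, 0.136 and 0.200 CPM in neoAC direct and 1.31, 5.87, 3.24 and 1.27 CPM in neoAC CellC (4.33 ± 0.80, adjusted p = 5.37e-05). All 4 cultures were above all 4 uncultured libraries. Rsad2, the radical SAM enzyme viperin, was at 1.01, 0.997, 1.05 and 1.46 CPM before and 13.5, 65.1, 39.9 and 27.8 CPM in culture (5.02 ± 0.66, adjusted p = 7.91e-07). Bst2, the tetherin that holds virus at the cell surface, was at 2.83, 4.82, 4.59 and 2.43 CPM before and 43.2, 118, 93.2 and 68.0 CPM in culture (4.45 ± 0.29, adjusted p = 5.39e-12). For both genes the groups were far apart. Eif2ak2, which encodes the kinase PKR that shuts off translation, differed less, at 48.3, 40.9, 39.6 and 56.9 CPM before and 58.0, 110.3, 89.3 and 86.7 CPM in culture (0.89 ± 0.15, adjusted p = 9.42e-06).

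The 3 IFITM genes, which encode membrane proteins that hinder virus fusion, did not move as one. Ifitm3 rose from 15.2, 18.4, 15.2 and 13.5 CPM to 97.3, 154, 123 and 101 CPM (2.93 ± 0.19, adjusted p = 1.73e-12). Ifitm2 rose little, from 9.26, 7.84, 6.56 and 7.19 CPM to 12, 10.2, 9.29 and 12.7 CPM (0.52 ± 0.12, adjusted p = 7.26e-04). Ifitm1 fell from 2.15, 2.85, 1.46 and 2.16 CPM to 0.562, 0.603, 0.693 and 0.998 CPM (−1.59 ± 0.23, adjusted p = 1.36e-06). The libraries of Ifitm1 were apart in the direction opposite to those of Ifitm3. Of the GTPases that act on intracellular pathogens, Iigp1 was at 0.455, 0.305, 0.306 and 0.399 CPM before and 4.59, 40.1, 23.6 and 14.9 CPM in culture (5.82 ± 0.77, adjusted p = 7.90e-07). Gbp3, a guanylate binding protein, was at 18.5, 17.2, 17.2 and 18.2 CPM before and 58.3, 153, 109 and 92.0 CPM in culture (2.54 ± 0.25, adjusted p = 4.14e-09). Irgm1, which regulates the other immunity-related GTPases, was at 16.3, 13.9, 13.9 and 18.7 CPM before and 26.9, 72.7, 49.2 and 42.1 CPM in culture (1.61 ± 0.28, adjusted p = 3.09e-05). Each of these had groups without overlap, and Gbp7 was the member of this role with the smallest rise (0.65 ± 0.21), lost without neoAC CellC replicate 2 (0.48, adjusted p = 0.0586). Lgals3bp, a secreted glycoprotein, was at 19.2, 23.1, 22.1 and 16.5 CPM before and 129, 271, 219 and 147 CPM in culture (3.24 ± 0.24, adjusted p = 5.69e-11), again without overlap. Xaf1, an interferon-induced gene linked to apoptosis, rose by 3.88 ± 0.30.

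Culture of adult astrocytes changed fewer members and by less. Of the 48 members, 25 were higher in AdAC CellC than in AdAC direct (52.1%) and 4 were lower (Ifit3b, Cmpk2, Ifitm1 and Xaf1), beside 38.8% and 39.2% of all genes, and 19 did not pass the test. The median log2 fold change was 0.84 over the members and 0.00 over all genes. By role, all 4 sensors and all 6 genes of the ISG15 system were higher, as were 3 of 6 oligoadenylate synthetases, 6 of 12 other antiviral effectors, 3 of 6 GTPases, 2 of 6 other induced genes and 1 of 4 transcription factors. No IFIT gene was higher and 1 of 4 was lower. Without AdAC CellC replicate 1, 20 members were higher and 7 lower, as Dhx58, Gbp3, Gbp7 (0.47), Oas1g (1.21) and Usp18 no longer passed the test while Ifit3, Mx2 (−0.97) and Oas2 (−1.51) then did. The call of Dhx58 (0.71 ± 0.31, adjusted p = 0.0395) was lost without that library (0.56, adjusted p = 0.121), without replicate 4 of the same group (0.72), without any single AdAC direct library (0.66 to 0.74), and in the DESeq2 Wald test (0.63, adjusted p = 0.0784). Of 15 microglial markers, 9 were higher and 2 lower in AdAC CellC, and their summed level was 47.9 to 78.2 against 27.6 to 41.6 CPM. Cx3cr1 (0.246 to 1.21 CPM) and P2ry12 (0.276 to 1.05 CPM) were lower in culture. C1qa was at 8.87 to 15.1 CPM in culture against 2.91 to 3.95 CPM before. Tyrobp was at 3.90 to 6.58 against 0.621 to 0.958 CPM. AdAC CellC replicate 1, the highest library for the members, had the lowest microglial and oligodendrocyte sums of its group, 47.9 and 3971 CPM. It also had the lowest astrocyte and neuron sums, 1092 and 170.0 CPM, and the highest endothelial sum, 87.9 CPM. Its ependymal (247 CPM) and mural or fibroblast (1475 CPM) sums lay within the range of the other libraries of the group. Between AdAC CellC and AdAC direct, the oligodendrocyte sum was 3971 to 10257 against 24232 to 27379 CPM, the astrocyte sum 1092 to 1669 against 17855 to 18614 CPM, and the ependymal sum 233 to 327 against 1186 to 1359.6 CPM. The mural or fibroblast sum was 1135 to 1556 against 441 to 482 CPM, and the part of these cell types in the result was not tested.

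In AdAC CellC, Irf1 was at 34.0, 29.9, 37.7 and 37.4 CPM against 15.5, 15.3, 15.3 and 13.7 CPM in AdAC direct, so that this factor rose in adult culture (1.22 ± 0.10, adjusted p = 2.94e-11). Irf7 was at 11.8, 2.86, 3.82 and 3.94 CPM against 2.31, 2.47, 5.41 and 3.19 CPM (0.73 ± 0.41, adjusted p = 0.109), and Stat2 at 45.6, 33.2, 36.3 and 33.0 CPM against 43.5, 43.0, 43.2 and 39.4 CPM (−0.19 ± 0.17, adjusted p = 0.294). For Irf7, Stat2 and Irf9 (0.00 ± 0.14) the libraries overlapped and no difference passed the test. Ddx58 rose from 10.9, 10.1, 10.5 and 10.9 CPM to 53.5, 34.6, 39.6 and 39.9 CPM (1.99 ± 0.20, adjusted p = 2.23e-09), with the groups far apart. Isg15 was at 1.03, 0.680, 2.41 and 1.72 CPM before and 14.0, 2.24, 4.12 and 3.23 CPM in culture (1.99 ± 0.57, adjusted p = 0.00297). Usp18 was at 2.41, 1.61, 2.88 and 2.28 CPM before and 15.8, 4.11, 3.69 and 4.44 CPM in culture (1.60 ± 0.47, adjusted p = 0.00387). Both genes had 1 culture, replicate 1, several times above the rest, and the Usp18 call was lost without it (0.84, adjusted p = 0.0578).

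The same library shaped the IFIT genes, the synthetases and the antiviral effectors. Ifit1 was at 18.4, 2.83, 3.29 and 2.20 CPM in AdAC CellC and 3.09, 2.01, 4.78 and 3.98 CPM in AdAC direct (0.94 ± 0.56, adjusted p = 0.134). Ifit3 was at 37.8, 7.64, 8.0 and 6.55 CPM in culture and 14.9, 14.8, 22.6 and 18.1 CPM before (−0.23 ± 0.49, adjusted p = 0.669). In 3 of 4 cultures Ifit3 was below every uncultured library, and without replicate 1 the gene was lower by the test (−1.23, adjusted p = 0.0063). Ifit3b was at 11.9, 1.98, 2.44 and 1.64 CPM in culture and 8.55, 8.87, 10.7 and 10 CPM before (−1.09 ± 0.47, adjusted p = 0.0399). This call was lost without AdAC CellC replicate 2 (−0.83), 3 (−0.87) or 4 (−0.80), and without AdAC direct replicate 2 (−1.13), 3 (−1.03) or 4 (−1.05). Mx1 was at 2.30, 0.291, 0.0797 and 0.155 CPM in culture and 0.319, 0.154, 0.743 and 0.226 CPM before (0.94 ± 0.75, adjusted p = 0.258), and Rsad2 at 17.8, 3.35, 2.20 and 3.04 CPM in culture and 4.97, 4.36, 6.51 and 4.74 CPM before (0.35 ± 0.56, adjusted p = 0.57). The other 3 cultures lay below the uncultured cells for Rsad2 and within or below their range for Mx1. Oas1a was above its uncultured level in all 4 cultures, at 4.30, 1.28, 1.25 and 1.55 CPM against 0.532, 0.463, 0.565 and 0.480 CPM (2.03 ± 0.51, adjusted p = 0.00102), while Oasl2 overlapped at 23.2, 11.4, 15.4 and 11.6 CPM against 9.15, 6.95, 16.0 and 10.1 CPM (0.54 ± 0.36, adjusted p = 0.168). Oasl1, another synthetase-like gene, had the highest rise of the comparison, from 0.319, 0.216, 0.446 and 0.282 CPM to 5.49, 1.43, 1.33 and 0.962 CPM (2.85 ± 0.57, adjusted p = 8.61e-05).

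Other members rose in adult culture with tight replicates. Ifitm2 went from 2.41, 1.88, 1.84 and 1.97 CPM to 13.7, 14.8, 13.9 and 13.3 CPM (2.78 ± 0.14, adjusted p = 3.08e-15), and Ifitm3 from 43.5, 34.8, 40.8 and 36.0 CPM to 164, 185, 173 and 187 CPM (2.19 ± 0.18, adjusted p = 7.07e-11). Bst2 went from 5.18, 4.85, 6.72 and 4.15 CPM to 37.6, 35.0, 30.6 and 30.7 CPM (2.68 ± 0.27, adjusted p = 5.59e-09). Here AdAC CellC replicate 1 did not stand apart from the other cultures. Eif2ak2 rose from 14.2, 15.1, 15.8 and 18.3 CPM to 45.7, 36.6, 36.2 and 36.5 CPM (1.29 ± 0.15, adjusted p = 3.46e-08), and Irgm1 from 11.2, 10, 12.6 and 11.7 CPM to 42.2, 26.2, 28.5 and 24.2 CPM (1.41 ± 0.29, adjusted p = 1.11e-04). Both were higher in all 4 cultures than in any uncultured library. Gbp3 was at 7.42, 6.67, 10.8 and 7.79 CPM before and 17.7, 10.4, 12.9 and 12.3 CPM in culture (0.70 ± 0.25, adjusted p = 0.0138) with overlap, and its call was lost without AdAC CellC replicate 1 (0.55, adjusted p = 0.0581). Lgals3bp, at 61.8, 67.4, 65.3 and 56.4 CPM before and 77.6, 89.4, 93.2 and 79.1 CPM in culture, did not pass the test (0.43 ± 0.22, adjusted p = 0.0772). Its libraries did not overlap, and it passed in edgeR's fit of the compared groups only (0.45, adjusted p = 9.31e-05). It also passed with scaling by library size only (0.51, adjusted p = 0.0355). Ifitm1 fell from 4.08, 4.14, 3.63 and 3.50 CPM to 2.03, 2.19, 2.84 and 2.64 CPM (−0.66 ± 0.21, adjusted p = 0.00551). Xaf1 had the largest fall, from 35.3, 34.3, 41.8 and 39.2 CPM to 13.9, 9.12, 10.9 and 7.20 CPM (−1.87 ± 0.25, adjusted p = 3.24e-07), and the groups did not overlap for either gene.

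**Figure D4:**
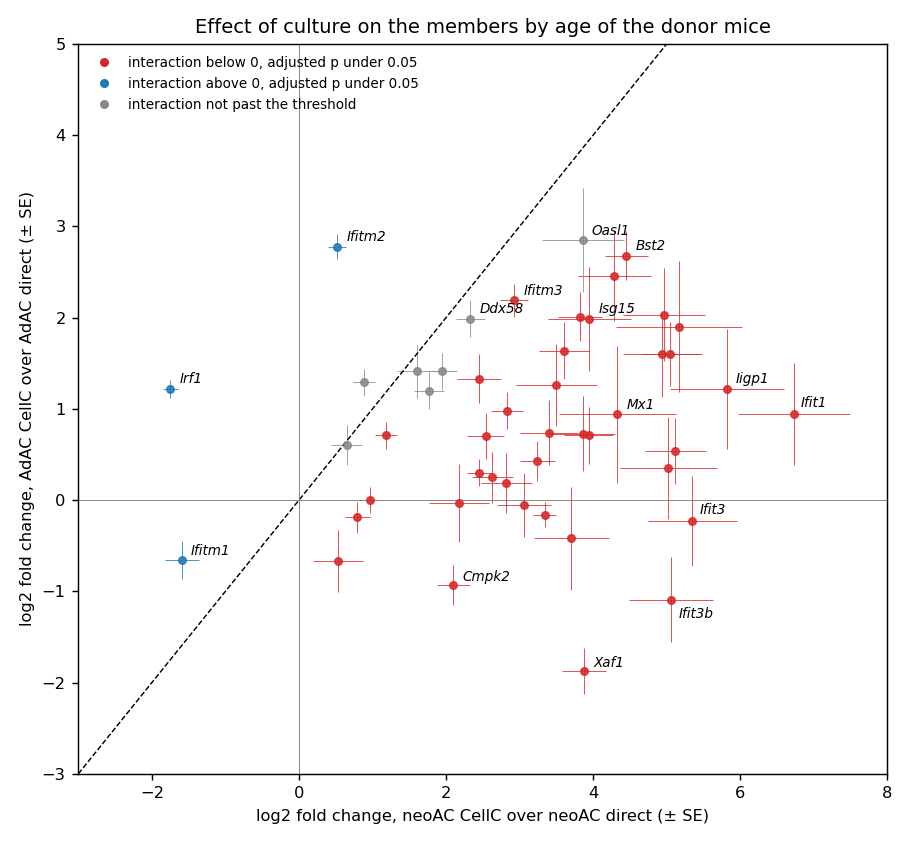
Log2 fold change of cultured over directly isolated cells in neonatal (horizontal axis) and adult (vertical axis) astrocytes for the 48 members tested, with standard errors as bars, a dashed line of equal change and colours for the outcome of the interaction test. Most members lie below the line, and Irf1, Ifitm1 and Ifitm2 lie above it, as does Eif2ak2, whose interaction did not pass the test.

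The difference between both culture effects was tested as the interaction of culture and age. The rise was smaller, or the fall larger, in adult than in neonatal astrocytes for 38 members (79.2%), and 3 members (6.25%) had the opposite difference, Irf1, Ifitm1 and Ifitm2, beside 33.2% and 35.4% of all genes. The median interaction was −2.18 over the members and 0.05 over all genes. All 4 IFIT genes, all 6 other induced genes, 5 of 6 synthetases and 9 of 12 other effectors were among the 38. Ddx58, Dtx3l, Parp9, Oasl1, Eif2ak2, Gbp7 and Irgm1 did not pass the test. Ifit3b (−6.15 ± 0.74, adjusted p = 1.79e-07) and Ifit1 (−5.80 ± 0.95, adjusted p = 1.49e-05) had the lowest values. Irf1 (2.97 ± 0.14, adjusted p = 1.95e-15) and Ifitm2 (2.26 ± 0.19, adjusted p = 9.02e-11) had the highest. For Irf1 the direction of the culture effect itself differed by age, as the gene fell in neonatal and rose in adult cells. For Xaf1 and Cmpk2 it was the reverse. The same held for Ifit3b, but its call in adult culture was lost when any of several single libraries was left out. Mx1 differed by −3.39 ± 1.14 (adjusted p = 0.0115), a call that was lost without AdAC direct replicate 3 (−2.75). The call of Isg15 (−1.95 ± 0.78, adjusted p = 0.0312) was lost when any of several libraries was left out, for example neoAC CellC replicate 2 (−1.50, adjusted p = 0.0841) or AdAC CellC replicate 2 (−1.67). Without AdAC CellC replicate 1 there were 41 members on the lower side and 3 on the higher, and without neoAC CellC replicate 2 there were 34 and 4, the calls of Ifi44 (−1.31), Mx2 (−0.82) and Trim25 (−0.29) being lost beside that of Isg15.

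Directly isolated astrocytes of both ages differed on fewer members. In neoAC direct 5 members were higher than in AdAC direct (10.4%; Irf1, Eif2ak2, Ifitm2, Gbp3 and Gbp7) and 21 were lower (43.8%), beside 35.0% and 36.4% of all genes. The median was −0.90 over the members, −0.80 with Oas1g at the bound its floor allows, and 0.00 over all genes. All 4 IFIT genes were lower in neonatal cells, among them Ifit3b (−3.53 ± 0.56, adjusted p = 8.45e-06), Ifit1 (−3.47 ± 0.79, adjusted p = 4.77e-04) and Ifit3 (−3.46 ± 0.59, adjusted p = 2.44e-05). Xaf1 was lowest of all, at 1.24 ± 0.143 CPM (SD, n = 4) against 37.6 ± 3.49 CPM (−4.92 ± 0.31, adjusted p = 5.17e-13). Ifi27, a small membrane protein gene induced by interferon alpha, was also lower, at 14.1 ± 1.78 against 91.1 ± 4.96 CPM (−2.69 ± 0.15). At the other end, Irf1 was higher in neonatal cells (2.43 ± 0.10, adjusted p = 1.20e-16), as was Ifitm2 (1.93 ± 0.14, adjusted p = 8.54e-12). Bst2 (−0.50 ± 0.29), Isg15 (0.43 ± 0.60), Mx1 (−1.32 ± 0.95) and Irf7 (−0.44 ± 0.43) did not pass the test and their libraries overlapped. The call of Usp18 (−1.39 ± 0.55) was lost without AdAC direct replicate 3 (−1.26) or without neoAC direct replicate 1 (−1.30), 2 (−1.44) or 3 (−1.30). All 8 oligodendrocyte and all 5 ependymal markers were lower in neoAC direct, with sums of 39.1 to 58.4 against 24232 to 27379 CPM and of 136 to 201 against 1186 to 1359.6 CPM. Their part in the result was not tested.

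After culture, most members were higher in neonatal than in adult cells. In neoAC CellC 39 members were higher than in AdAC CellC (81.2%) and 4 were lower (8.33%; Irf1, Ifitm1, Ifitm2 and Ifitm3), beside 28.5% and 35.2% of all genes. Their median log2 fold change was 1.26, that of all genes −0.09. Ddx58, Zbp1, Oas1g, Isg20 and Ifi35 did not pass the test. Oas2, at 1.44, 7.99, 4.63 and 3.80 CPM in the neonatal and 1.01, 0.233, 0.133 and 0.155 CPM in the adult cultures, had the largest difference (3.55 ± 0.50, adjusted p = 9.81e-07), followed among members of over 1 CPM by Gbp3 (2.96 ± 0.25, adjusted p = 5.41e-10). Both were higher in all 4 neonatal cultures. Irf7 (2.69 ± 0.40), Oasl2 (2.47 ± 0.36) and Bst2 (1.27 ± 0.25) also had no overlap, while Ifit1 (2.32 ± 0.55), Ifit3 (2.12 ± 0.50), Isg15 (2.38 ± 0.51), Rsad2 (2.48 ± 0.55) and Mx1 (2.07 ± 0.65) overlapped. For each of these 5 the highest AdAC CellC library, replicate 1, exceeded the lowest neoAC CellC library. In edgeR's fit of the compared groups only, Ifit1 (adjusted p = 0.0506) and Mx1 (adjusted p = 0.0798) lost their calls. With a replicate block in that fit, Ifit3 (adjusted p = 0.117), Isg15 (adjusted p = 0.109) and Rsad2 (adjusted p = 0.0739) lost theirs too. The Mx1 call was also lost without neoAC CellC replicate 2 (1.48, adjusted p = 0.0572). Ifitm1 (−1.76 ± 0.23, adjusted p = 3.01e-07) and Ifitm3 (−0.58 ± 0.17, adjusted p = 0.00505) were the lowest. Without neoAC CellC replicate 2, 32 members were higher and 3 lower, as Dtx3l (0.24), Ifih1 (0.38), Ifitm2 (−0.29), Irgm1 (0.39), Mx2 (0.49), Oasl1 (0.94) and Parp14 (0.60) also lost their calls, and without AdAC CellC replicate 1, 41 and 4. Microglial markers were not higher in the neonatal cultures, with 11 of 15 lower and none higher, and neither were oligodendrocyte markers, with 8 of 8 lower, whereas 5 of 5 ependymal and 10 of 10 astrocyte markers were higher there. The part of these cell types in the result was not tested.

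AGES, the astrocytes made from stem cells, differed from NSC on 24 of 48 members. In AGES 18 of 48 members were higher than in NSC (37.5%) and 6 were lower (12.5%), beside 31.7% and 34.0% of all genes, and 24 did not pass the test. The share of members that were higher was near that of all genes. The median log2 fold change was 1.02 over the members, or 0.91 over 38 members with 6 at the bound their floor allows and 10 at the floor in both groups left out, and 0.00 over all genes. Members higher in AGES came from the IFIT proteins (3 of 4), the GTPases (3 of 6), the other induced genes (3 of 6), the other effectors (5 of 12), the ISG15 system (1 of 6, Parp9) and the transcription factors (Irf1, Irf9 and Stat2). No sensor and no oligoadenylate synthetase was among them in edgeR's fit, whereas the DESeq2 Wald test also called Zbp1 (3.16, adjusted p = 0.02), Oasl1 (1.91, adjusted p = 0.0394) and Oasl2. Ifit3 went from 0.293, 0.0911, 0.159 and 0.635 CPM in NSC to 17.9, 13.2, 17.6 and 14.0 CPM in AGES (5.74 ± 0.76, adjusted p = 8.33e-07), and Iigp1 from 0, 0.121, 0.0637 and 0.0334 CPM to 2.96, 3.77, 3.88 and 1.84 CPM (5.71 ± 1.07, adjusted p = 6.52e-05). Both were near the floor in NSC and detected in all 4 AGES libraries. Ifit3b rose by 5.64 ± 0.72 and Ifit2 by 1.42 ± 0.15. Ifit1, at the floor in NSC, was at 0.819, 0.290, 0.481 and 0.592 CPM in AGES, and its fitted difference did not pass the test (3.16 ± 1.39, adjusted p = 0.0518), but passed with DESeq2 size factors (adjusted p = 0.0469) and in the DESeq2 Wald test (3.36, adjusted p = 2.00e-04).

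The transcription factor Stat2 went from 26.2, 32.1, 22.7 and 28 CPM in NSC to 55.2, 60.5, 58.5 and 61.3 CPM in AGES (1.11 ± 0.17, adjusted p = 2.42e-06), and Irf1 from 10.1, 9.35, 10.9 and 9.40 CPM to 14.8, 14.6, 18.2 and 17.7 CPM (0.72 ± 0.10, adjusted p = 7.57e-07). Irf7 was at the floor in both. Ifitm2 was abundant in both, with 70.8, 84.6, 72.8 and 62.9 CPM in NSC and 131, 113, 159 and 142 CPM in AGES (0.90 ± 0.11, adjusted p = 9.74e-08). Ifitm3 was at 17.6, 31.5, 22.0 and 18.7 CPM in NSC and 63.6, 54.7, 87.4 and 92.1 CPM in AGES (1.73 ± 0.18, adjusted p = 6.28e-09), and Ifitm1 at 0.130, 0.0911, 0.0318 and 0.0334 CPM in NSC and 0.702, 0.609, 0.545 and 0.592 CPM in AGES (3.02 ± 0.38, adjusted p = 1.00e-07). All 3 IFITM genes were thus higher in AGES, from very different starting levels. Eif2ak2 was at 42.3, 30.7, 42.5 and 42.5 CPM in NSC and 70.8, 61.8, 65.2 and 65.6 CPM in AGES (0.74 ± 0.15, adjusted p = 9.56e-05). Rsad2 fell, from 6.10, 2.43, 9.49 and 7.12 CPM to 2.42, 1.16, 0.833 and 2.27 CPM (−1.93 ± 0.62, adjusted p = 0.00919), as did Dhx58, from 1.76, 1.15, 1.18 and 1.87 CPM to 0.585, 0.522, 0.288 and 0.132 CPM (−1.96 ± 0.40, adjusted p = 9.84e-05). Gbp3 was at 13, 5.74, 7.64 and 8.80 CPM in NSC and 3.82, 3.19, 2.40 and 3.49 CPM in AGES (−1.45 ± 0.27, adjusted p = 5.71e-05), and Lgals3bp at 33.9, 38.2, 56.2 and 26.8 CPM in NSC and 19.0, 13, 21.2 and 27.0 CPM in AGES (−0.95 ± 0.23, adjusted p = 8.35e-04). The Lgals3bp libraries overlapped, those of the other 3 did not. Irgm1, at 2.41, 2.00, 4.65 and 3.28 CPM in NSC and 3.94, 3.05, 3.88 and 8.43 CPM in AGES, did not pass the test (0.64 ± 0.33, adjusted p = 0.0894).

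Other members had few counts in both NSC and AGES. Isg15 was at 0.163, 0.0911, 0.0955 and 0.10 CPM in NSC and 0.351, 0.261, 0.705 and 0.724 CPM in AGES (2.15 ± 1.11, adjusted p = 0.0961), Oasl2 at 0.0652, 0.0304, 0.0955 and 0.134 CPM in NSC and 0.624, 0.290, 0.481 and 0.428 CPM in AGES (2.42 ± 1.08, adjusted p = 0.0537). None of their libraries overlapped, and neither difference passed the test in edgeR's fit. In the DESeq2 Wald test both passed, Isg15 at 2.27 (adjusted p = 0.00397) and Oasl2 at 2.58 (adjusted p = 1.87e-04), and Oasl2 also did with DESeq2 size factors (adjusted p = 0.0485). Bst2 was at 0.261, 0.0911, 0.191 and 0 CPM in NSC and 0.195, 0.0870, 0 and 0.132 CPM in AGES (−0.45 ± 0.98), Ddx58 at 0.456, 0.243, 0.318 and 0.167 CPM in NSC and 0.390, 0.145, 0.192 and 0.263 CPM in AGES (−0.30 ± 0.52), and Mx1 at 0.0652, 0.0304, 0 and 0.0334 CPM in NSC and 0.195, 0.0290, 0.0961 and 0.165 CPM in AGES (1.74 ± 1.54). These 3 genes were hardly detected in the 8 libraries and their groups overlapped. Usp18, with 0.0780, 0.0290, 0.0320 and 0.0658 CPM in AGES, and Oas1a, with 0, 0.0290, 0 and 0.0329 CPM, were at the floor in both groups.

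**Figure D5:**
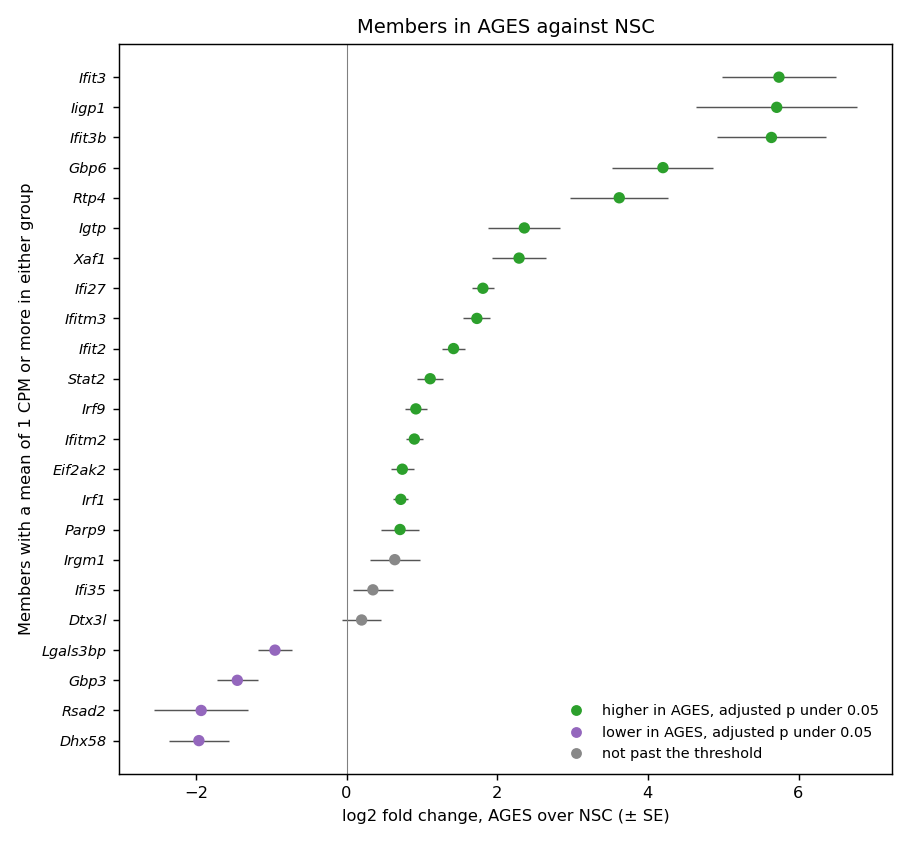
Log2 fold change of AGES over NSC (horizontal axis, points, with standard errors as bars) for the 23 members with a mean of at least 1 CPM in either group, coloured by the outcome of the test. Ifit3 (5.74), Iigp1 (5.71) and Ifit3b (5.64) lead, and Lgals3bp, Gbp3, Rsad2 and Dhx58 lie below 0.

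Against both primary cultures AGES were low on most members. Compared with AdAC CellC, 5 members were higher in AGES (10.4%; Stat2, Ifit2, Eif2ak2, Ifitm2 and Ifi27) and 37 were lower (77.1%), beside 31.0% and 45.2% of all genes, with a median of −2.63 (−2.58 with 8 members at their bound) and of −0.23 over all genes. Compared with neoAC CellC, 1 was higher (2.08%; Ifitm2) and 45 were lower (93.8%), beside 34.1% and 40.5% of all genes, with a median of −4.37 (−4.18 with 8 at their bound) and of −0.07 over all genes. Both comparisons share the AGES libraries. Trim25, a ligase that activates RIG-I, was at the floor in AGES and at least 323-fold lower than in AdAC CellC and at least 549.7-fold lower than in neoAC CellC. For Ifih1 these bounds were at least 169-fold lower and at least 258-fold lower, for Cmpk2, a nucleotide kinase next to Rsad2, at least 92.0-fold lower and at least 671-fold lower. Irf7 was at least 56.1-fold lower and at least 361-fold lower, Usp18 at least 70.3-fold lower and at least 271-fold lower. Trim30d, one of the TRIM30 ligases, was at least 54.6-fold lower and at least 246-fold lower, and Oas1a at least 21.0-fold lower and at least 76.8-fold lower. Without AdAC CellC replicate 1, the bound against AdAC CellC was 35.5 for Irf7, 40.9 for Usp18 and 13.6 for Oas1a. In each of these genes all 4 libraries of both cultures lay above AGES.

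Bst2, Ddx58, Oasl2 and Isg15 had 0 to 22 counts per AGES library, so that the size of their fitted differences rests on values near the floor. Bst2 differed by −8.35 ± 0.46 from AdAC CellC (adjusted p = 6.15e-14) and by −9.62 ± 0.45 from neoAC CellC (adjusted p = 3.45e-15). Ddx58 differed by −7.43 ± 0.31 and −7.80 ± 0.31, Oasl2 by −5.10 ± 0.51 and −7.56 ± 0.52, and Isg15 by −3.52 ± 0.66 and −5.90 ± 0.66. By contrast Ifit3 did not pass the test against AdAC CellC (0.06 ± 0.49, adjusted p = 0.911) and was lower than in neoAC CellC (−2.06 ± 0.50, adjusted p = 8.59e-04) with overlap. The single high AdAC CellC library mattered here. Without it, 8 members were higher in AGES and 34 lower, as Ifit3 (1.09, adjusted p = 0.0146), Ifit3b (2.02, adjusted p = 1.81e-05) and Iigp1 (1.61, adjusted p = 0.00538) were then higher, while Mx1 (−2.55 with it and −0.56 without it, adjusted p = 0.545), Rsad2 (−1.99 and −0.79, adjusted p = 0.147) and Ifi35 (−0.69 and −0.58, adjusted p = 0.0574) no longer passed the test. Ifitm2 had the largest excess in AGES, at 136 ± 19.6 CPM (SD, n = 4) against 13.9 ± 0.640 CPM in AdAC CellC (3.29 ± 0.12, adjusted p = 4.91e-18) and 11.1 ± 1.59 CPM in neoAC CellC (3.62 ± 0.13, adjusted p = 9.05e-19). Eif2ak2 was higher than in AdAC CellC (0.77 ± 0.15, adjusted p = 4.90e-05) and lower than in neoAC CellC (−0.39 ± 0.15, adjusted p = 0.0197), the last of which was lost without neoAC CellC replicate 2 (−0.24, adjusted p = 0.131), as was the call of Ifi27 against neoAC CellC (−0.23). The origin of the cells, the mouse substrain and the medium differ together between AGES and the primary cultures and cannot be told apart.

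Of 58 further genes of the interferon pathway, 37 were tested. Their counts leaned to the same side as those of the members in adult culture and in AGES against both primary cultures. For the interaction and in AGES against NSC they leaned to the other side. In neonatal culture 14 were higher, 12 lower and 11 not called, beside 34.4% higher and 31.3% lower of all genes. The neonatal shares were thus near those of all genes. In adult culture the counts were 24, 5 and 8, beside 38.8% and 39.2% of all genes. For the interaction they numbered 20, 8 and 9, beside 35.4% above 0 and 33.2% below 0 of all genes. The ligands were scarcely detected: the 19 interferon genes summed to 6 to 14 counts per library in neoAC CellC, 2 to 11 in AdAC direct, 0 to 2 in AdAC CellC, 0 to 1 in NSC and AGES and 0 in neoAC direct. Most of these counts were Ifng, which encodes interferon gamma, at 0.187, 0.183, 0.360 and 0.194 CPM in neoAC CellC and 0.0710, 0.124, 0.208 and 0.254 CPM in AdAC direct. Ifnb1 was at 0 to 0.0277 CPM in neoAC CellC. Such counts are too few to rank the groups on single interferon genes.

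The receptor genes were present in all 6 groups for type I and type II interferon. Ifnar1 had group means between 72.0 CPM (AdAC direct) and 139.6 CPM (NSC). It fell in neonatal culture (−0.46 ± 0.07, adjusted p = 2.40e-06) and rose slightly in adult culture (0.20 ± 0.07, adjusted p = 0.0093). All 6 receptor genes were higher in adult culture, with Ifngr2, a subunit of the interferon gamma receptor, going from 12, 11.5, 10.4 and 10.4 CPM to 67.0, 64.0, 61.5 and 61.2 CPM (2.52 ± 0.08, adjusted p = 5.95e-19). In neonatal culture 3 of 6 were higher and 2 lower, with Ifngr1, the other subunit, higher by 1.19 ± 0.09 (adjusted p = 3.71e-11). Between the cultures, 5 of 6 were lower in neoAC CellC than in AdAC CellC and none was higher. Ifnlr1 and Il10rb, which form the receptor of type III interferon, were at 0 to 0 and 0.0580 to 0.230 CPM in AGES and at 0.582 to 0.780 and 8.90 to 11.3 CPM in neoAC CellC.

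Of the inhibitors, Socs3, a feedback suppressor of JAK kinases, was at 575, 490.4, 576 and 409 CPM in neoAC direct and 34.9, 23.5, 25.9 and 25 CPM in neoAC CellC (−4.23 ± 0.26, adjusted p = 1.58e-12), and at 16.6, 21.0, 14.9 and 15.8 CPM in AdAC direct and 53.2, 75.7, 83.4 and 82.1 CPM in AdAC CellC (2.11 ± 0.24, adjusted p = 3.52e-08). Socs3 was therefore very high in uncultured neonatal cells like Irf1, and both genes fell in neonatal culture and rose in adult culture. Socs1, which blocks the same kinases, fell in neonatal culture (−0.78 ± 0.20) and rose in adult culture (1.32 ± 0.21).

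Of the genes that couple sensors to interferon production, Tlr3, a receptor for double-stranded RNA, was at 31.7, 50.2, 37.5 and 39.3 CPM in cultured neonatal cells. In adult cells it was at 66.8, 68.6, 70.9 and 94.6 CPM before and 17.7, 14.4, 13.5 and 12.4 CPM after culture (−2.38 ± 0.22, adjusted p = 1.08e-09). In AGES it was at the floor and at least 398-fold lower than in neoAC CellC. Tmem173, which encodes the DNA-signalling adaptor STING, had its highest level in NSC (119, 123, 165 and 117 CPM), with 11.0, 7.34, 19.2 and 36.9 CPM in AGES (−2.82 ± 0.33, adjusted p = 1.13e-07) and 3.31, 1.83, 1.19 and 1.75 CPM in neoAC CellC. The sensor cGAS, upstream of STING and listed by its earlier symbol Mb21d1, rose in adult culture from 0.355, 0.0618, 0.208 and 0.169 CPM to 2.92, 2.48, 2.87 and 2.85 CPM (3.81 ± 0.49, adjusted p = 1.05e-07). Adar, which edits double-stranded RNA, had group means between 64.5 and 95.1 CPM. In AGES, 11 of the 37 were higher and 17 lower than in NSC, beside 31.7% and 34.0% of all genes. The share of higher genes was near that of all genes. Against AdAC CellC, 5 were higher and 25 lower, beside 31.0% and 45.2% of all genes. Against neoAC CellC, 9 were higher and 20 lower, beside 34.1% and 40.5%.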

How the data were processed

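RNA-seq data of 24 mouse libraries were analysed, 4 per group. The authors demultiplexed reads with bcl2fastq 2.20, aligned them to GRCm38 with STAR 2.7.3a and counted them on exons with featureCounts and Gencode vM12. How reads with several alignments were counted is not stated. They deposited the resulting raw counts of 49671 genes, not normalized. Whether counting used the strand is not stated, so genes that overlap on opposite strands are uncertain (Dtx3l with Parp9, and over shorter stretches Dhx58, Eif2ak2, Ifi35, Irf1, Irf7, Oasl1 and Usp18). Gencode vM21 gave symbols and positions and held 49326 of the identifiers (99.3%). It lists Mx2 and Oas1b as polymorphic pseudogenes.

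Tests used edgeR 4.0.16 in R 4.3.3: filterByExpr (19691 genes kept), TMM, and a robust quasi-likelihood fit of the 6 groups. Contrasts for 7 comparisons and for the difference of both culture effects were tested two-sided with Benjamini-Hochberg adjustment over all genes tested, after a trial on simulated data. The SE was taken as |log2 fold change| over the root of F. The precision of low values is limited by library totals of 27904126 to 37997368 counts. The p-values rest on a single spread per gene, estimated over the separate isolations or cultures of all 6 groups. The members varied more in neoAC CellC (median 43.7%) and AdAC CellC (27.4%) than in the other groups (12.9% to 20.1%). The p-values of comparisons with these cultures therefore do not measure the spread of the compared groups alone. No 2 libraries were identical.

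The members, the lists and the motifs were chosen with earlier results of these data known. Given in full were 20 members spread over the roles, and in each comparison the 2 highest and 2 lowest log2 fold changes among members past the threshold and 1 CPM or more in their higher group. Members named beyond these, such as Ifit2, Irf9, Ifi27 and Cmpk2, were chosen after their values were seen. Alternatives were DESeq2 1.42.0 (size factors, Wald test), scaling by library size, other count filters, a minimum fold change, a fit of the compared groups with and without a replicate block, and leaving out each library. Same-numbered replicates were not treated as pairs, as the labels name no pairing and their correlations were not all over 0.1 in any comparison. These correlations cannot show whether an isolation or passage was shared. Some results are not reported here.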

Additional observations from a re-analysis of the deposited data

Results flagged for a closer look

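In each group of 4 libraries, a value was marked when its gap to the nearest other library exceeded Dixon's critical share of the group's range, which chance does for about 1 in 20 groups. Of 160 such groups of named members and of the sum over all members, 23 were marked. AdAC CellC replicate 1 accounted for most. The summed level of all members in it was 1106 CPM, and it stood above the rest of its group for Mx1 (2.30 CPM), Isg15 (14.0 CPM), Ifit1 (18.4 CPM), Ifit3 (37.8 CPM), Oas1a (4.30 CPM), Rsad2 (17.8 CPM), Eif2ak2 (45.7 CPM), Irf7 (11.8 CPM), Usp18 (15.8 CPM), Oasl1 (5.49 CPM), Ifit3b (11.9 CPM), Iigp1 (8.99 CPM), Ifih1 (23.1 CPM) and Oas2 (1.01 CPM). These members rise and fall together, so the marks are not independent of each other.

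Of the remaining marks, neoAC CellC replicate 2 was high for Irf1 (28.5 CPM) and neoAC direct replicate 4 for Rsad2 (1.46 CPM). AdAC direct replicate 4 was low for Irf1 (13.7 CPM) and Stat2 (39.4 CPM). In AGES, replicate 4 was high for Irgm1 (8.43 CPM). In NSC, replicate 1 was high for Isg15 (0.163 CPM), replicate 4 for Ifit3b (0.334 CPM), and replicate 2 was low for Eif2ak2 (30.7 CPM). The NSC values of Isg15 and Ifit3b lie near the detection floor, so that these marks rest on few counts.

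The effect of culture differed between the ages by the interaction test of edgeR for 24 named members, where a value below 0 is a smaller rise or a larger fall in adult than in neonatal cells. Below −4 were Ifit3b (−6.15), Ifit1 (−5.80), Xaf1 (−5.75), Ifit3 (−5.59), Rsad2 (−4.67), Iigp1 (−4.60), Oasl2 (−4.58) and Oas2 (−4.12). Next came Mx1 (−3.39), Usp18 (−3.34), Dhx58 (−3.23), Irf7 (−3.13), Oas1a (−2.93), Lgals3bp (−2.81) and Trim30d (−2.38). Values nearer to 0 belonged to Isg15 (−1.95), Ifih1 (−1.85), Gbp3 (−1.84), Bst2 (−1.78), Stat2 (−0.98) and Ifitm3 (−0.74). Above 0 were Irf1 (2.97), Ifitm2 (2.26) and Ifitm1 (0.93).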

How the results depend on the processing

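The number of members past the threshold moved by more than 1.5 times under 2 settings. A minimum of 10 counts in every library left 16 members to test, of which 10 were called in adult culture, 16 in neonatal culture, 14 in AGES against NSC, 14 against AdAC CellC and 15 against neoAC CellC, 14 between the cultured ages, 11 between the directly isolated ages and 14 for the interaction. With a replicate block in a fit of the compared groups, neoAC CellC against AdAC CellC had 22 members called, against 43 in the fit of all groups and 34 in the same fit without the block. Whether equal numbers pair the samples is not stated, and the cause of this drop was not tested. The other replicate block fits gave 33 members in adult and 47 in neonatal culture, 24 in AGES against NSC, 41 against AdAC CellC, 44 against neoAC CellC, 32 between the directly isolated ages and 37 for the interaction.

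Leaving out 1 library at a time gave 26 to 31 members called in adult culture, 46 to 48 in neonatal culture, 23 to 26 in AGES against NSC, 41 to 43 against AdAC CellC, 44 to 47 against neoAC CellC, 35 to 45 between the cultured ages, 25 to 26 between the directly isolated ages and 35 to 44 for the interaction. Over the named members and all alternatives, 3474 values kept their side of the threshold, 112 lost it, 46 gained it and none that was called reversed its sign. Scaling by library size only moved the all-gene median of the log2 fold change from 0.041 to 0.271 in neonatal culture, from −0.226 to −0.445 in AGES against AdAC CellC, from −0.07 to −0.373 against neoAC CellC and from 0.046 to −0.103 for the interaction. Members under about 0.1 CPM in a group carry standard errors over 1 on the log2 scale in several comparisons, which depth limits.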
